A study of Homo sapiens with 6 samples.

Results

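The genes described here are 54 genes of the G2 phase and mitosis, the set commonly used to score the end of the cell cycle in expression data. They were taken by symbol from the deposited table, in which all 54 were found among 27328 rows, and all 54 passed the filter on low values that left 12064 genes for testing. The table gives FPKM (fragments scaled to transcript length and library size, so levels can be compared between genes per length) for 6 libraries of SACC-83 cells. SACC-83 is an established human line from a salivary adenoid cystic carcinoma. One group was 3 libraries of cells with an empty vector, whose genotype is given as WT. The other was 3 libraries of cells labelled as overexpressing circMYBL1, a circular RNA formed from exons of MYBL1. The genotype labels of the overexpression libraries read circMYBL1, circMYBL2 and circMYBL3, with a number that runs on, while their titles mark all 3 only as overexpression, so they were kept as 1 group. No age of the culture, dose or time after transfection was given for either group, and nothing says that the libraries of a group came from separate cultures or clones. The p-values below therefore compare a difference with the spread among 3 libraries per group, and that spread may be technical.

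Cells enter mitosis when CDK1 bound to cyclin B is activated by CDC25 phosphatases and helped by the kinases PLK1 and AURKA. The spindle checkpoint then restrains the anaphase-promoting complex (APC/C) until the chromosomes are attached, after which APC/C with CDC20 and UBE2C marks cyclin B and securin for destruction and the sister chromatids part. The transcripts of these proteins peak late in the cell cycle. Many of their promoters carry a cell cycle genes homology region (CHR), and CCAAT boxes bound by NF-Y. The CHR is read by the MuvB complex, with B-MYB and FOXM1 or as the core of DREAM. In bulk RNA, fewer cells in G2 and mitosis and less of these transcripts per cell cannot be told apart.

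MYBL1 checked the labels, with FPKM of 9.04, 7.15 and 10.3 in vector replicates 1, 2 and 3 and of 359, 44.0 and 2025 in overexpression replicates 1, 2 and 3. All 3 overexpression libraries were thus above all 3 vector libraries, by very unequal amounts, with a log2 fold change of 5.04 ± 0.66 (SE) and a limma adjusted p of 0.0225 with replicate number as a block. Without the block the SE was 1.21 and the adjusted p 1.0. FPKM in the table does not separate the circular from the linear RNA. Epithelial markers were present, since all 7 of 7 reached an FPKM of 1 in some library, and their summed FPKM was 1999 to 2346 in vector and 2072 to 2456 in overexpression libraries. Of 5 genes known from salivary adenoid cystic carcinoma, KIT was at 0 in every library, SOX10 stayed under 1, MYB averaged 0.935, NFIB 1.52 and TP63 18.8. The summed immune markers were 0.255 to 0.635 in vector and 0.205 to 0.653 in overexpression libraries, with 0 of 5 reaching 1 and PTPRC, CD3E and LYZ at 0. Endothelial markers summed to 0.101 to 1.71 and 0.199 to 1.38, with 1 of 4 reaching 1 and KDR at 0, and fibroblast markers to 4.05 to 11.3 and 3.07 to 8.90, with 1 of 6 (COL1A1) reaching 1 and COL1A2 at 0.

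The G2/M genes were expressed in every library. The lowest value of any of them was 5.58 FPKM, for GAS2L3 in overexpression replicate 1, and 49 of 54 had a mean over the 6 libraries above the median of all genes tested (9.83 FPKM). TUBB4B, a beta-tubulin, had by far the highest mean at 487 FPKM. It was followed by CKS1B at 154, UBE2C at 133, TPX2 at 104, CDC20 and HMGB2 at 103 each, and ANLN at 101. The lowest TUBB4B library (242) was above the highest CKS1B library (190), while from CKS1B on the ranges of neighbours in that order overlapped. In all, 19 genes averaged 50 FPKM or more, while 6 averaged under 10, among them CDC25C at 7.82 and G2E3 at 7.75. The 54 genes together held 0.786%, 0.642% and 0.700% of the summed FPKM in vector replicates 1 to 3, and 0.733%, 0.689% and 0.686% in overexpression replicates 1 to 3, so the ranges of the groups overlapped.

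Most of these genes varied little between libraries. The ratio of the highest to the lowest library had a median of 1.41 over the 54 genes and of 1.66 over all genes tested. A ratio of at least 2 was found for 6 of the 54 (TUBB4B 2.85, CBX5 2.48, CDC20 2.40, TOP2A 2.16, RANGAP1 2.06 and CDCA3 2.05), against 31.8% of all genes tested, and no test of that difference was made. The steadiest was GTSE1, a microtubule-associated protein of G2, at 1.10. A plot of all 54 genes by library shows where the variation lay.

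**Figure D1:**
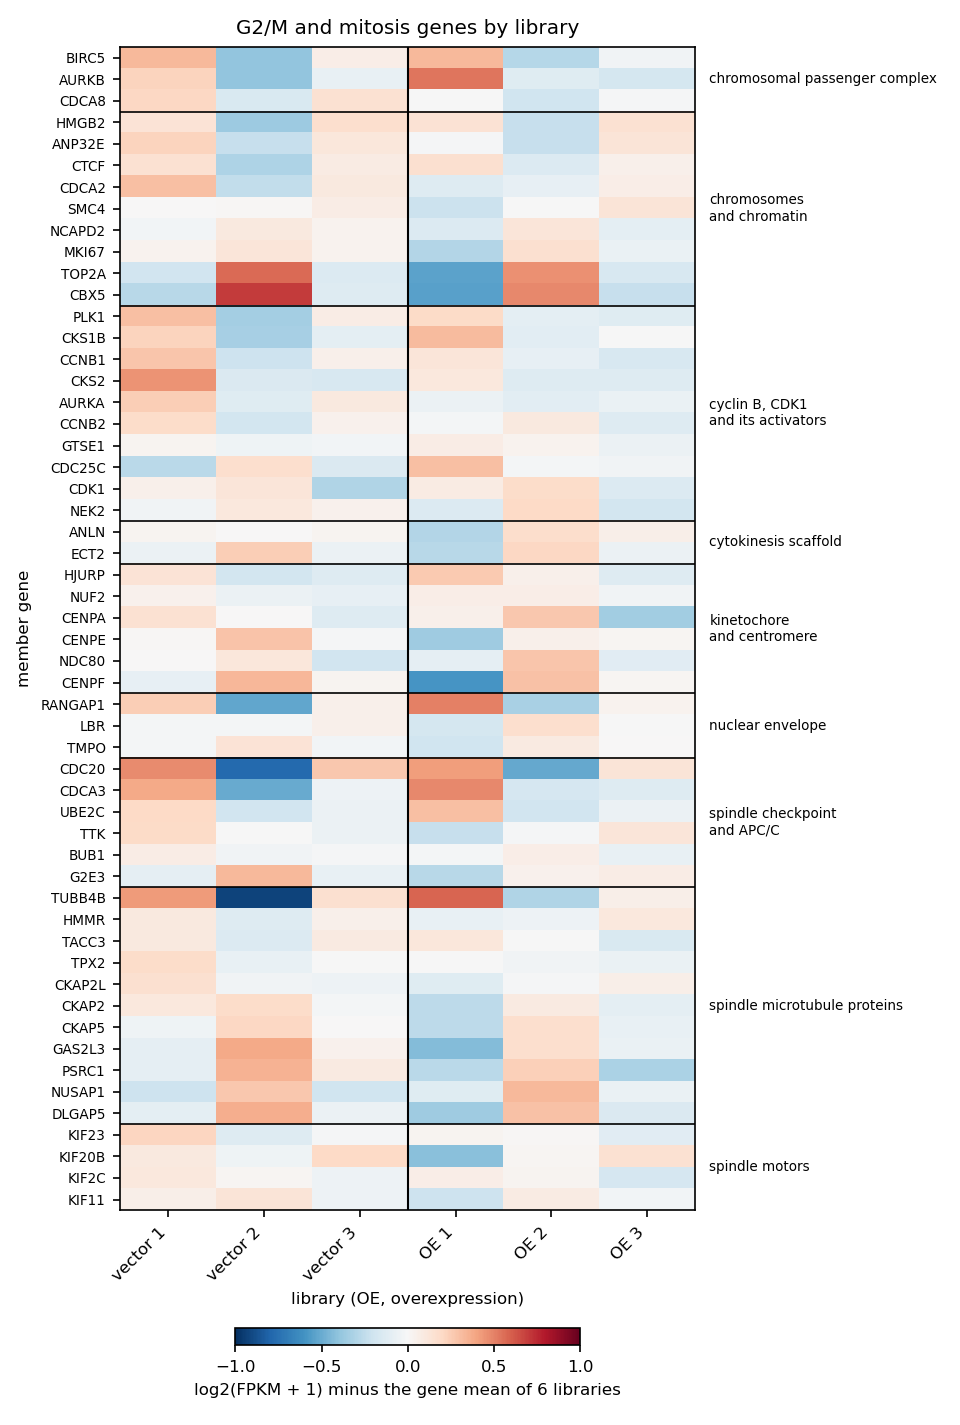
Colour shows log2(FPKM + 1) of each G2/M gene in each library minus that gene's mean over the 6 libraries, with genes grouped by role and the vertical line between the 3 vector and the 3 overexpression (OE) libraries. Vector 2 and OE 2 share their colour in the strongest rows: both are low for CDC20, TUBB4B and RANGAP1 and high for TOP2A and CBX5.

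Between vector and overexpression, no G2/M gene passed the test. In limma, 0 of 54 had an adjusted p under 0.05, with 0% of all 12064 genes passing, and the smallest adjusted p among the 54 was 1.0. At an unadjusted p under 0.05 the counts were 0 of 54 against 0.539% of all genes (65 genes). With replicate number as a block, 0 of 54 were called against 0.0995% of all genes (12 genes), and 0 of 54 had an unadjusted p under 0.05 against 7.19%. The smallest p with the block alone was that of PSRC1, at 0.0539 (limma adjusted p 0.698). With base composition and transcript length also corrected for, the limma p of PSRC1 was 0.00456 (log2 fold change -0.33, adjusted p 0.435). That of CDCA8 was 0.0305 (log2 fold change -0.21, adjusted p 0.585). The share of all genes under 0.05 in that corrected fit was not taken. In 0 of 54 genes did the 3 vector values lie wholly apart from the 3 overexpression values, against 3.34% of all genes tested. With 3 libraries a group, the smallest p of an exact permutation test is 0.1, reached only where the groups lie apart.

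The intervals show how large a difference each gene could hide, given the spread among these libraries, which may be technical. Each is for 1 gene alone, and those with the block rest on a pairing taken from the same data. The 95% interval of the log2 fold change spanned 0 for all 54 genes, with and without the block. Without the block, 52 of 54 intervals lay within 1 log2 unit of 0 on both sides, TUBB4B (upper bound 1.15) and CBX5 (lower bound -1.02) being the exceptions. With the block all 54 lay within it, and the widest bounds were -0.47 and 0.51. Fold changes here are on the log2(FPKM + 1) scale, which understates the change of low genes.

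**Figure D2:**
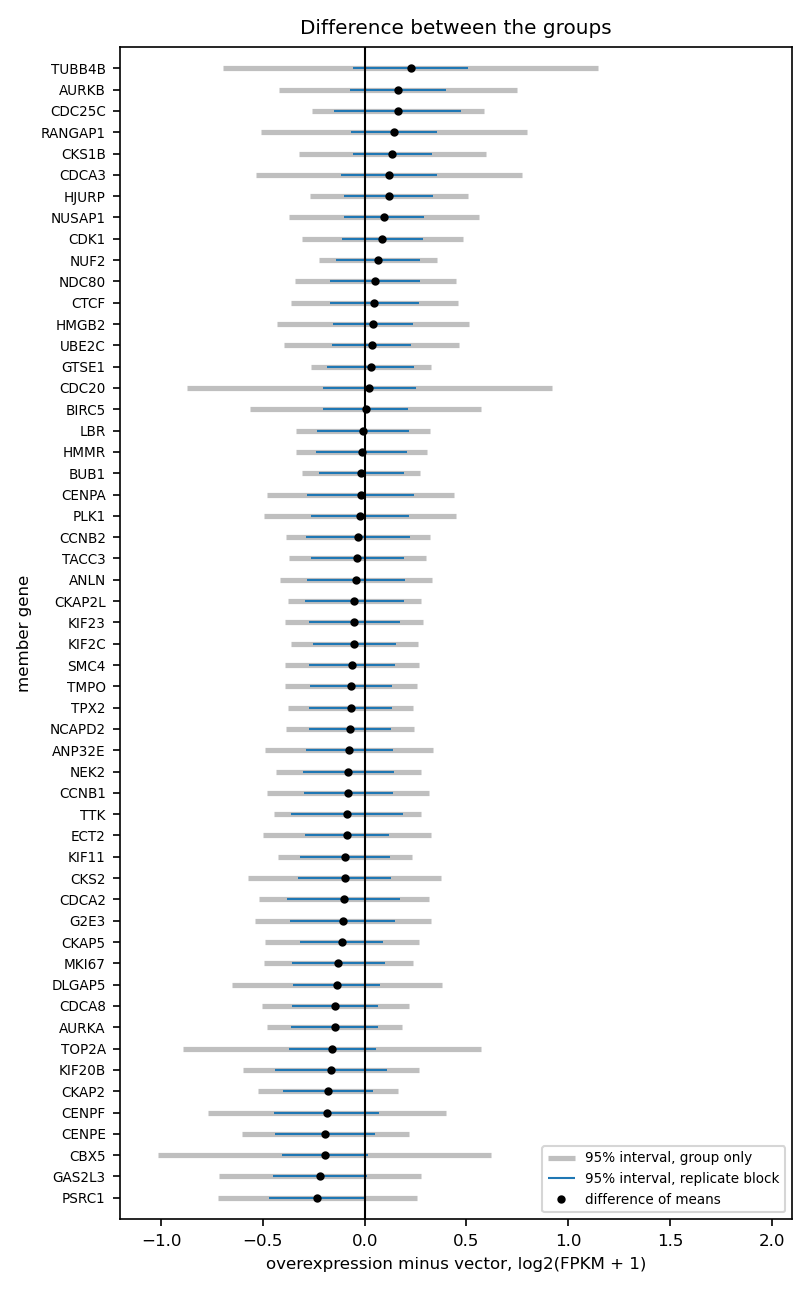
Each point is the log2 difference of a G2/M gene, overexpression minus vector, on log2(FPKM + 1), with 95% limma intervals from the fit with group only (grey) and with replicate number as a block (blue). Points run from -0.23 (PSRC1) to 0.23 (TUBB4B), and every interval of both fits crosses the line at 0.

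The differences were small and mostly on the lower side. The log2 fold change ran from -0.23 for PSRC1 to 0.23 for TUBB4B, with a median of -0.05 over the 54 genes and of 0.03 over all genes tested. Its value was below 0 for 37 of 54 (68.5%), against 41.9% of all genes tested. The 3 pairs of same-numbered libraries differed in this. Comparing overexpression replicate 1 with vector replicate 1, 39 of 54 genes were lower (72.2%, against 41.0% of all genes), with a median log2 ratio of -0.18 against 0.06 over all genes. Between the libraries numbered 2, 19 were lower (35.2%, against 41.1%), and the median was 0.06 against 0.04. Between those numbered 3, 35 were lower (64.8%, against 58.0%), and the median was -0.04 against -0.03. The SD of the 3 medians was 0.12, larger than the overall median. Without vector replicate 1 the median was 0.01, and 24 of 54 genes were lower.

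Few genes lay on 1 side in every pair. The overexpression library was the lower one in all 3 pairs for 9 of 54 (CDCA8, CBX5, TOP2A, CENPF, CKAP2, CKAP5, DLGAP5, GAS2L3 and PSRC1), against 11.9% of all genes tested. It was the higher one in all 3 pairs for 4 of 54 (CDK1, CKS1B, NUF2 and NUSAP1), against 16.5%. Vector replicate 1 held the highest value for 16 of the 54 genes (29.6%, against 10.1% of all genes), and overexpression replicate 1 the lowest for 20 (37.0%, against 22.8%). The ratio within the first pair moved with GC content, the share of G and C bases in the longest transcript: Spearman's rho was 0.573 over the 54 genes and 0.533 over the 11166 tested genes with a GC value, which share the same 2 libraries. In the pair numbered 2 rho was 0.472 over the 54 genes and 0.117 over all genes with a GC value. For number 3 the sign turned, with -0.526 and -0.091. Once both properties, GC content and length, were corrected for, 44 of 54 genes were lower in the first pair, with a median of -0.15. After the correction 24 were lower in the second pair (median 0.02) and 32 in the third (median -0.03). The share of all genes was not taken after the correction, so these counts have no background beside them.

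Among the genes that switch CDK1 on, CKS1B, a small subunit of cyclin-dependent kinases, was the most abundant. Its FPKM was 178, 121 and 142 in vector replicates 1 to 3 and 190, 141 and 152 in overexpression replicates 1 to 3. Each overexpression value was above its same-numbered vector value, but the groups overlapped and the log2 fold change was 0.14 ± 0.19 (SE, n = 3 per group). CKS2, its near-identical partner, had 121, 79.5 and 78.7 in vector and 94.9, 80.5 and 80.5 in overexpression libraries, with vector replicate 1 the highest of all 6. CKS1B has 6 annotated pseudogenes, so fragments may be split between copies. AURKA, the kinase of the spindle poles that activates PLK1, had the lowest fold change of the role: 74.8, 57.9 and 67.7 in vector and 60.6, 58.6 and 60.3 in overexpression libraries, a log2 difference of -0.15 ± 0.14 (SE). CDC25C, the phosphatase that removes the inhibitory phosphates of CDK1, had the highest, with 6.27, 8.82 and 6.91 against 9.75, 7.65 and 7.52, and 0.16 ± 0.18 (SE). The other 6 genes of the role are the kinase CDK1, the cyclins CCNB1 and CCNB2, the kinases PLK1 and NEK2, and GTSE1, and their log2 fold changes lay between those of AURKA and CDC25C.

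The checkpoint and APC/C genes included CDC20 and CDCA3, both with a ratio of at least 2 between libraries. CDC20, the activator of APC/C in mitosis, was at 137, 57.0 and 119 FPKM in vector and at 132, 68.5 and 108 in overexpression libraries. The overexpression values lay within the range of the vector values, with a log2 fold change of 0.02 ± 0.38 (SE), and both libraries numbered 2 were the lowest of their group. UBE2C, the ubiquitin-conjugating enzyme of APC/C, was at 151, 115 and 127 in vector and 162, 115 and 127 in overexpression libraries. CDCA3, a mitotic entry factor that is itself a target of APC/C, had 26.7, 14.0 and 19.5 against 28.6, 17.9 and 18.4, with a log2 fold change of 0.12 ± 0.28 (SE). G2E3, a ubiquitin ligase of G2, was the lowest of all 54 genes in mean level, at 7.15, 9.88 and 7.23 against 6.16, 7.93 and 8.13, and had the lowest fold change of its role, -0.11 ± 0.18 (SE). The checkpoint kinases TTK (-0.09) and BUB1 (-0.02) completed the set.

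The chromosomal passenger complex corrects wrong attachments of kinetochores and then guides cytokinesis. Its kinase AURKB was at 72.0, 46.7 and 58.6 FPKM in vector and 89.9, 56.7 and 54.6 in overexpression libraries, so overexpression replicate 1 was the highest of the 6 and the log2 fold change was 0.16 ± 0.25 (SE). BIRC5 (survivin), the subunit that brings the complex to the centromere, was at 40.4, 24.1 and 33.5 against 40.4, 26.1 and 31.3. Its group means, 32.7 ± 8.19 and 32.6 ± 7.24 FPKM (SD, n = 3), were nearly identical. CDCA8 (borealin) was at 23.3, 17.9 and 22.3 against 20.0, 17.3 and 19.8, with each overexpression value below its same-numbered vector value and a log2 fold change of -0.14 ± 0.15 (SE).

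Kinetochore and centromere genes were expressed at lower levels, from 8.92 FPKM for CENPA, the histone variant of centromeres, to 27.1 for CENPF on average. CENPF, a large kinetochore protein of G2 and mitosis, had 24.9, 33.7 and 27.1 in vector and 17.3, 32.6 and 26.9 in overexpression libraries. Overexpression replicate 1 alone lay below the vector range, and the log2 fold change was -0.19 ± 0.25 (SE). CENPE, the kinesin that carries chromosomes to the spindle equator, had 10.3, 12.7 and 10.1 against 7.74, 10.6 and 10.3, and -0.19 ± 0.17 (SE). HJURP, the chaperone that places CENPA, had the highest fold change of the role, with 17.8, 14.1 and 14.7 against 19.5, 16.7 and 14.7, and 0.12 ± 0.16 (SE). NDC80 (0.05) and NUF2 (0.07), partners in the complex that grips microtubules, and CENPA (-0.02) lay between. CENPA shares exon bases with SLC35F6 on the same strand, and with that partner's FPKM added the group means were 19.3 ± 1.03 and 20.0 ± 2.24 (SD, n = 3).

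All 4 spindle motors had a fold change below 0 and none passed the test. KIF23, which bundles the central spindle, was the most abundant, at 37.2, 29.1 and 31.7 FPKM in vector and 32.5, 32.2 and 29.4 in overexpression libraries. KIF20B, a kinesin of cytokinesis, had the lowest fold change, with 16.6, 15.0 and 17.9 against 11.4, 15.7 and 17.3, and -0.17 ± 0.18 (SE), and here too overexpression replicate 1 alone stood below the vector values. KIF11, the motor that pushes the spindle poles apart, had -0.10, and the microtubule depolymerase KIF2C -0.05. In cytokinesis, the scaffold ANLN was at 103, 101 and 103 in vector and 81.8, 114 and 105 in overexpression libraries, and the RHOA activator ECT2 at 51.2, 63.7 and 51.3 against 43.9, 61.7 and 51.4.

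Spindle microtubule proteins held both ends of the order of fold changes. TUBB4B was at 620, 242 and 515 FPKM in vector and 691, 374 and 481 in overexpression libraries. Its log2 fold change of 0.23 ± 0.39 (SE) was well within the spread, since vector replicate 2 was at less than 50% of either other vector library. TUBB4B has 7 annotated pseudogenes, and beta-tubulin genes resemble each other, so its level is uncertain. PSRC1, a microtubule-binding protein, was at 7.48, 10.5 and 8.63 against 6.51, 9.64 and 6.28, with -0.23 ± 0.21 (SE). In all, 9 of the 11 genes of this role had a fold change below 0, and none passed the test. Besides PSRC1 these were GAS2L3 (-0.22), CKAP2 (-0.18), DLGAP5 (-0.14), CKAP5 (-0.11), TPX2 (-0.07), CKAP2L (-0.05), TACC3 (-0.04) and HMMR (-0.02). NUSAP1, which bundles microtubules, was the other gene above 0 (0.09). It shares exon bases with the gene AC087721.2 on the same strand, at 4.40 to 8.78 FPKM, and the sum of both was 58.2 ± 8.46 in vector and 59.8 ± 12.1 in overexpression libraries (SD, n = 3).

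Of the chromosome and chromatin genes, 7 of 9 had a fold change below 0 and none passed the test. CBX5, the heterochromatin protein HP1 alpha, had the lowest, at 14.1, 28.8 and 15.7 FPKM in vector and 11.6, 24.5 and 14.6 in overexpression libraries. Each overexpression value was below that of its number, yet both libraries numbered 2 were above the other 4, and the log2 fold change was -0.20 ± 0.35 (SE). HMGB2, a chromatin protein that bends DNA, was the most abundant, at 112, 78.9 and 115 against 113, 86.8 and 113. CTCF, which organises chromosome loops, had the highest fold change, with 18.9, 13.5 and 18.0 against 19.0, 15.3 and 17.6, and 0.05 ± 0.17 (SE). The rest were TOP2A (-0.16), MKI67 (-0.13), CDCA2 (-0.10), ANP32E (-0.08), NCAPD2 (-0.07) and SMC4 (-0.06). In the nuclear envelope, RANGAP1, the activator of the RAN GTPase cycle, was at 70.3, 40.9 and 61.3 against 84.1, 47.1 and 60.6, with a log2 fold change of 0.15 ± 0.28 (SE). The lamina protein TMPO was at 64.1, 71.5 and 63.7 against 56.4, 69.2 and 64.9, and LBR, the lamin B receptor, had a log2 fold change of -0.01.

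The libraries numbered 2 differed from the other 4 in both groups. This held over all genes tested, with 3282 called higher and 2323 called lower in number 2. The G2/M genes also went both ways, which is not particular to them. An F test of replicate number in limma, with group in the model, called 21 of 54 genes (38.9%), against 46.5% of all genes tested, so the share was not above the background. Of the 21, 9 were higher in the libraries numbered 2 (background 27.2%): TOP2A, CBX5, DLGAP5, CENPF, NUSAP1, PSRC1, GAS2L3, ECT2 and CDK1. The other 12 were lower there (background 19.3%): CDC20, TUBB4B, RANGAP1, BIRC5, CDCA3, HMGB2, AURKB, ANP32E, PLK1, CKS1B, UBE2C and CKS2. Without a filter on low values the same test called 0 of 54 and 0 genes in all. Counted by position, both libraries numbered 2 were above the other 4 for 17 of 54 genes (against 35.9% of all genes) and below them for 12 (against 25.7%). Higher and lower here mean number 2 against the mean of numbers 1 and 3, while the F test responds to any difference between the numbers. Not every call was thus one of number 2. CKS2 averaged 108, 80.0 and 79.6 FPKM in numbers 1, 2 and 3, so number 1 stood apart. CDK1 averaged 49.9, 53.0 and 40.9, with number 3 the farthest from the others. What the replicate numbers mark is not stated in the labels.

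The largest differences by number ran opposite ways. CDC20 was at 57.0 and 68.5 FPKM in the libraries numbered 2 and between 108 and 137 in the other 4, a log2 difference of -0.97 between number 2 and the mean of numbers 1 and 3 (limma adjusted p 2.83e-04). TUBB4B differed by -0.92 (adjusted p 9.69e-04), RANGAP1 by -0.63 (0.00139), BIRC5 by -0.51 (0.00339) and CDCA3 by -0.50 (0.00291), all from the same limma fit. In the other direction CBX5 differed by 0.88 (adjusted p 3.27e-04) and TOP2A, the topoisomerase that disentangles sister chromatids, by 0.77 (6.79e-04). TOP2A was at 75.9, 129 and 79.3 FPKM in vector and at 59.9, 120 and 77.6 in overexpression libraries. DLGAP5, a spindle protein that stabilises kinetochore fibres, differed by 0.49 (0.00755), at 20.3, 28.4 and 20.9 against 16.8, 26.9 and 19.6, and CENPF by 0.47 (0.0119). TOP2A and DLGAP5 are given in full because of these differences, outside the rule for named genes. Within 1 role the directions also parted: among the chromatin genes HMGB2 was lower by 0.45 in the libraries numbered 2, where CBX5 was higher.

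**Figure D3:**
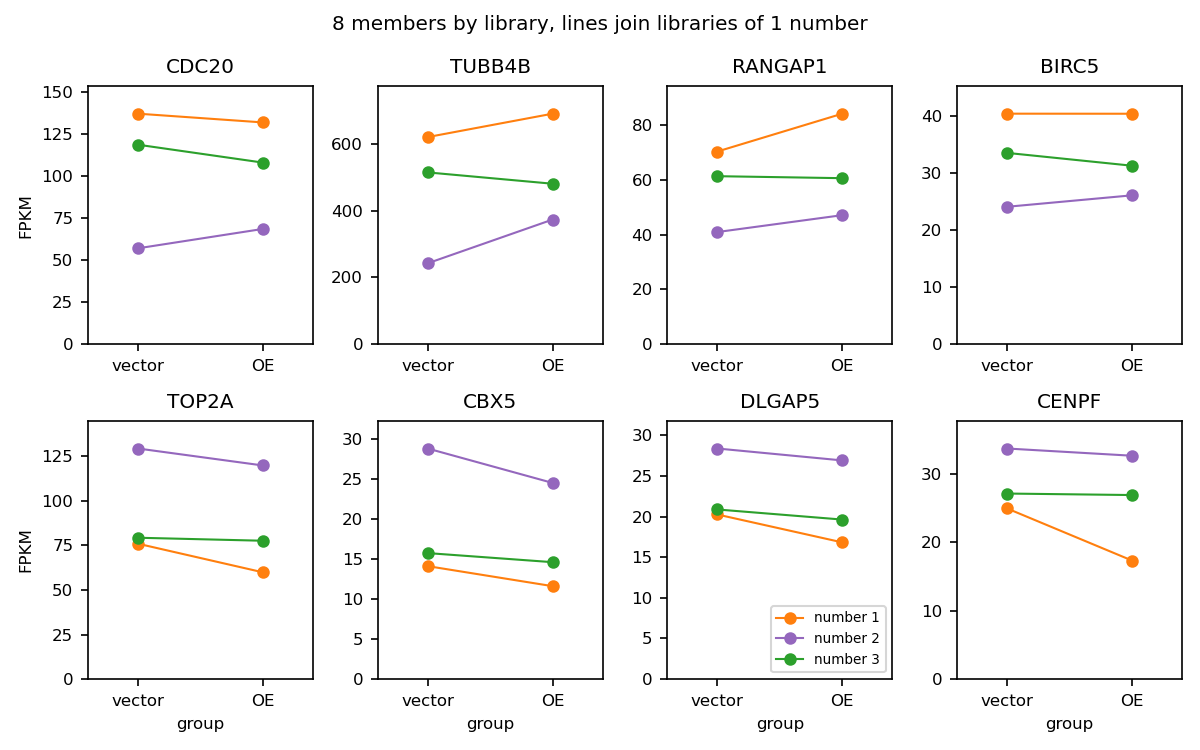
FPKM of 8 G2/M genes in each library, with vector at the left and overexpression (OE) at the right of each panel, and lines joining libraries of the same replicate number. The purple points of number 2 are the lowest in the top panels (CDC20, TUBB4B, RANGAP1 and BIRC5) and the highest in the bottom panels (TOP2A, CBX5, DLGAP5 and CENPF) in both groups, while the groups overlap in all 8.

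Most of this rested on the libraries numbered 2. Without them, 2 of 54 genes were called between numbers 1 and 3, AURKB (limma adjusted p 0.0149) and CDCA3 (0.0198), against 3.71% of all genes. The differences also moved with base composition. Over the 54 genes, Spearman's rho between GC content and the log2 difference of number 2 was -0.51, and between transcript length and that difference 0.40. Over the 11166 tested genes with a GC value the same measures were -0.02 and 0.21, all from the same 6 libraries. The 9 called genes higher in number 2 had a median GC content of 39.1% (34.8% to 55.9%) and a median longest transcript of 3948 bases. The 12 lower ones had 51.7% (36.3% to 59.5%) and 1962 bases. With GC content and length corrected for in each library, 20 of 54 were called (against 50.1% of all genes with a GC value), of which 16 were called before the correction too. CENPF, CKS2, ECT2, GAS2L3 and UBE2C were called only before it, and CENPA, CTCF, HJURP and NDC80 only after it. CDC20 (-0.90), TUBB4B (-0.88), CBX5 (0.62) and TOP2A (0.57) kept their direction and their call after the correction.

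**Figure D4:**
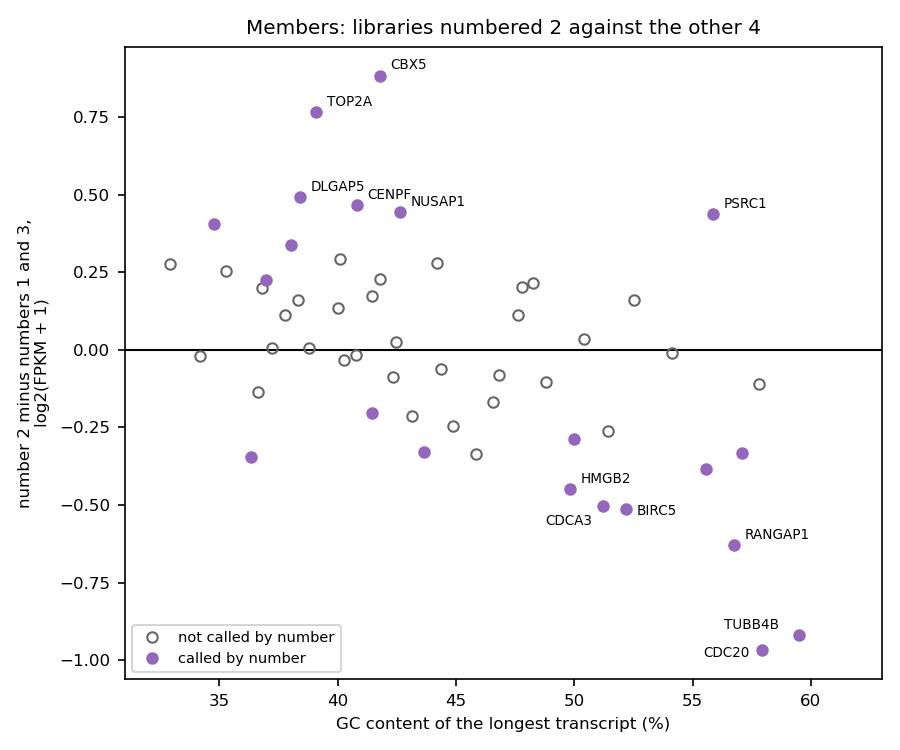
Each point is 1 of the 54 G2/M genes, with the GC content of its longest transcript in percent on the x axis and its log2 difference between the libraries numbered 2 and the mean of numbers 1 and 3 on the y axis. Filled points were called by replicate number: CDC20 and TUBB4B lie at the lower right, TOP2A and CBX5 at the upper left, and PSRC1 (55.9% GC, 0.44) is high on both axes.

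The share of mitochondrial transcripts also differed by library, from 5.64% of the summed FPKM in overexpression replicate 1 to 10.2% in vector replicate 2, and its part in these differences was not tested. The promoters of genes at both ends of this split are printed to show the elements that late cell cycle promoters share. Each is from RefSeq (GRCh38.p14), on the strand of the gene, 250 bases before the annotated start and 10 from it on, and was taken for the 3 lowest and 3 highest differences among called genes with 1 listed start. Capitals mark TTTGAA or TTTAAA (the letters of a CHR) and CCAAT (the core of an NF-Y box), or their reverse complements, on either strand.
CDC20: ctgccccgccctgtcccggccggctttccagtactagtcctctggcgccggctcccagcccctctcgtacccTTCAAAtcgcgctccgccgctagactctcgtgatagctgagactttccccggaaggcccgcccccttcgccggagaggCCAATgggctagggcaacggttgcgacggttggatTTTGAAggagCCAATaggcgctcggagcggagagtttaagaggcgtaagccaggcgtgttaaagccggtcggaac
TUBB4B: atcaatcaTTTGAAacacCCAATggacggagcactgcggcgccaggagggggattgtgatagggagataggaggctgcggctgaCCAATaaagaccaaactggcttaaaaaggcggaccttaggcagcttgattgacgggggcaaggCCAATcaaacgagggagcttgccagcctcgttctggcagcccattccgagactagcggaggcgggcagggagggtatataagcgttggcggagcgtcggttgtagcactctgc
CDCA3: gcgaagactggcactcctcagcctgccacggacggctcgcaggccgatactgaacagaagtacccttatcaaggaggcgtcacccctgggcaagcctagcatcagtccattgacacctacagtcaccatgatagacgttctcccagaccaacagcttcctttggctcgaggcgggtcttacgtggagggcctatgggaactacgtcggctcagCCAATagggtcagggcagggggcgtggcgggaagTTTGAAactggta
CENPF: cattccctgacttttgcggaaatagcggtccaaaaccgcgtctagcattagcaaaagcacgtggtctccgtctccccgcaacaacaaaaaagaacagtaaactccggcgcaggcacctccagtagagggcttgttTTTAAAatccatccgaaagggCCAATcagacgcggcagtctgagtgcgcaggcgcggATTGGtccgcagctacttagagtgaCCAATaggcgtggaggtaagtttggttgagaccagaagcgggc
DLGAP5: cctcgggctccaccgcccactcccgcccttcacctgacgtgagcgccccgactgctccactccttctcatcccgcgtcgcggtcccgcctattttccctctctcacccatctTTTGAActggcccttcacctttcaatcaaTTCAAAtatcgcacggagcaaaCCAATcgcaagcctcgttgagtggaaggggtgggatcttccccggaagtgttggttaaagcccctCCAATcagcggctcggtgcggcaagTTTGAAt
TOP2A: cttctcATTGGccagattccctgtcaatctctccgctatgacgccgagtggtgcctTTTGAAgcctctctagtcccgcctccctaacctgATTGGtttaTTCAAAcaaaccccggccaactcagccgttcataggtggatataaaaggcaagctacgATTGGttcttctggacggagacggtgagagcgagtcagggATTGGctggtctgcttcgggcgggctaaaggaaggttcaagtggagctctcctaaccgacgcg
The first of these lie at chr1:43358731-43358990 on the plus strand (CDC20), chr9:137241037-137241296 on the plus strand (TUBB4B) and chr12:6851277-6851536 on the minus strand (CDCA3), for genes low in the libraries numbered 2. The others lie at chr1:214602945-214603204 on the plus strand (CENPF), chr14:55191576-55191835 on the minus strand (DLGAP5) and chr17:40417887-40418146 on the minus strand (TOP2A), for genes high there.

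Genes at both ends of the split carried the same letters. In CDC20 a TTTGAA begins 65 bases before the start, with a CCAAT at 100 and another at 55 bases before it. In CDCA3 a CCAAT begins 37 bases and a TTTGAA 3 bases before the start. TOP2A has CCAAT at 244, 160, 93 and 53 bases before the start, all on the other strand, and a TTTGAA at 194 and at 151. CENPF has a TTTAAA at 115 bases before the start and CCAAT at 94, 58 and 33. Of the 54 genes, 46 had at least 1 of 57 listed windows of 300 bases. ANP32E, AURKA, BIRC5, CDCA2, HMGB2, TPX2, TTK and UBE2C were not matched. Searched on both strands, TTTGAA was in 63.2% of the 57 windows against 15.2% of all 35116 windows of this length, TTTAAA in 28.1% against 12.2%, and CCAAT in 68.4% against 34.6%. A CHR of either spelling together with a CCAAT was in 56.1% against 9.27%. In 2 windows matches of different motifs overlapped. Counted by gene, 40 of 46 had either CHR spelling (87.0%, against 27.9% of all genes with a window). It was present in 8 of the 9 genes higher in the libraries numbered 2 and in 7 of the 8 lower ones with a window. The letters alone are a description of these windows.

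Other genes of the cell cycle, from lists of the regulators, partners and neighbours in time of the 54 genes, were not called between groups either. In the 17 APC/C subunits and regulators, 45 other mitotic genes, 42 S phase genes, 15 transcription factors of late cell cycle genes and 8 CDK inhibitors, all of which passed the filter, 0 had an adjusted p under 0.05 in limma with or without the block. Median log2 fold changes were 0.07 for the APC/C list, -0.03 for the other mitotic genes, 0.04 for S phase, -0.03 for the transcription factors and 0.01 for the CDK inhibitors. The S phase genes had 26 higher and 16 lower values (38.1% lower), the other mitotic genes 20 higher and 25 lower (55.6% lower). At an unadjusted p under 0.05 with the block, 5 of the 45 other mitotic genes passed, 1 of the 42 S phase genes and 1 of the 8 CDK inhibitors, against 7.19% of all genes tested. Of the 5, SPC25 (0.27), PKMYT1 (0.35) and CDCA5 (0.23) had higher and SGO1 (-0.29) and DEPDC1 (-0.30) lower values in the overexpression libraries.

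SPC25, a partner of NDC80 and NUF2, had the smallest of these p-values among the mitotic genes, with 11.3, 8.38 and 9.33 FPKM in vector and 12.8, 10.9 and 11.8 in overexpression libraries. Its log2 fold change was 0.27 ± 0.15 (SE) with group only, a limma p of 0.123. With the block the SE was 0.10, the p 0.0208 and the adjusted p 0.617, and it was higher in 3 of 3 pairs. SGO1 (shugoshin), which protects centromeric cohesion, was at 9.37, 8.39 and 9.11 FPKM against 6.09, 7.42 and 7.96, so all 3 overexpression values lay below the vector values. Its log2 fold change was -0.29 ± 0.15 (SE) with group only, and with the block the limma p was 0.0280 and the adjusted p 0.632. MASTL, of the same list, lay apart the other way, at 7.56, 7.54 and 6.45 against 8.13, 8.56 and 8.04. Groups thus lay apart for 1 lower and 1 higher of these 45 genes, against 3.34% of all genes tested. DEPDC1 was at 11.7, 15.1 and 11.6 against 7.12, 14.2 and 10.3, and the groups overlapped. SGO1, MASTL, DEPDC1, PKMYT1 and CDCA5 were named after their values were seen. PTTG1 (securin), the most abundant of that list, was at 87.8, 73.4 and 69.7 against 87.1, 72.7 and 66.4. CDKN1A (p21), the inhibitor of cyclin-dependent kinases induced by p53, was at 33.0, 60.2 and 36.7 against 57.6, 60.1 and 43.2, so the groups overlapped. Its log2 fold change was 0.34 ± 0.26 (SE) with group only (limma p 0.227), and with the block the SE was 0.14 and the adjusted p 0.645. RRM2, a subunit of ribonucleotide reductase, had 84.7, 41.1 and 66.1 against 101, 51.5 and 74.0, and a log2 fold change of 0.24 ± 0.33 (SE) with group only (limma p 0.485). With the block its SE was 0.09 and the adjusted p 0.617. PCNA, the sliding clamp of replication, was at 186, 162 and 158 against 188, 177 and 160.

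Genes of these lists were called by replicate number too, as were genes at large. Of the 8 CDK inhibitors 7 were called by number in limma, all 7 higher in the libraries numbered 2. CDKN3 was not called, and CDKN1C (p57) was highest, at a log2 difference of 1.14. Number 2 did not stand alone in every call. CDKN2C averaged 11.4, 12.9 and 8.06 FPKM in numbers 1, 2 and 3, and CDKN2B 3.39, 7.57 and 5.76. CDKN1C was at 12.2, 36.7 and 18.1 FPKM in vector and 15.8, 37.2 and 19.8 in overexpression libraries. Of the S phase genes 20 of 42 were called, 14 of them lower in the libraries numbered 2, among them RRM2 (-0.80). Of the other mitotic genes 13 of 45 were called, 8 lower and 5 higher, with WEE1, the kinase that holds CDK1 inactive, higher by 0.98. The ends of this list were 2 CDC25 phosphatases, which activate CDK1, and they parted: CDC25A was at -1.05 and CDC25B at 1.01. WEE1 was at 28.8, 60.8 and 33.3 FPKM in vector and 26.8, 58.5 and 30.6 in overexpression libraries. Of the APC/C list 6 of 17 were called, 5 lower and 1 higher, with UBE2S, which extends ubiquitin chains for APC/C, at -0.86. UBE2S was at 66.2, 33.5 and 58.1 FPKM in vector and 90.6, 38.3 and 53.6 in overexpression libraries. ANAPC5, a subunit of the complex, was at 65.8, 49.4 and 62.0 against 70.7, 60.6 and 62.6, and ANAPC13 at 22.6, 19.2 and 17.4 against 27.2, 21.4 and 19.2. Of the transcription factors 5 of 15 were called, 3 lower and 2 higher. MYBL2 (B-MYB), which with MuvB activates these genes, was lower (-0.36), at 103, 72.6 and 95.3 against 107, 80.9 and 91.3. RBL2 (p130), which represses them as part of the DREAM complex, was higher (0.92), at 9.92, 23.9 and 13.4 against 9.25, 20.7 and 13.1. The rest of those called were E2F4 (-0.39) and NFYC (-0.42), both lower, and RBBP4 (0.34), higher. These, like CDC25A and CDC25B, were named after their values were seen. NFYB, a subunit of NF-Y, was not called, at 14.9, 15.8 and 14.5 against 11.2, 15.2 and 12.5. The shares called, 87.5%, 47.6%, 28.9%, 35.3% and 33.3% for CDK inhibitors, S phase, other mitotic genes, APC/C and transcription factors, stand beside the 46.5% of all genes tested.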

How the data were processed

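mRNA of 6 SACC-83 libraries was purified from TRIzol extracts and prepared with a NEBNext Ultra kit, per the labels' protocols. The authors deposited FPKM. The submitters' processing notes name HISAT2 and GRCh38. Counter, annotation, versions and use of strand: not given in the sources used here. No counts were used, so the depth is unknown and counting error has no estimate. Overlapping genes cannot be told apart.

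Testing covered the 12064 of 27328 rows that reached an FPKM of 1 in 3 libraries or more. The model, in limma 3.58.1 (R 4.3.3), had log2(FPKM + 1) as response and group as the only term. Its eBayes step used a trend, tests were 2-sided, and p-values were adjusted by Benjamini-Hochberg over all 12064 with a threshold of 0.05. Replicate number was tested by an F test in a model with group. Deviations from the group mean correlated across genes at 0.725, 0.881 and 0.529 for the pairs numbered 1, 2 and 3, so the numbers were taken to pair the libraries, on these values and not on the labels. They do so less clearly for numbers 1 and 3, since libraries of those numbers correlated at 0.412 and 0.424 across pairs. GC content and length came from GENCODE 29, and the correction was a lowess of log2 values per library (span 0.3). The fits were also run on simulated data with independent noise, where small separate sets of genes differed by group or by number. That setting lacks the wide differences by number found here, so it does not give the power of the fits in these data. Alternatives were a pseudocount of 0.1, no filter, a mean FPKM of at least 5, TMM factors, quantile scaling, no trend, the block, the block with the correction, and each library left out.

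The genes and lists were chosen with earlier results of these data known. Values in every library are given, within each role, for the gene with the highest mean FPKM, those with the highest and lowest log2 fold change and that with the smallest p for replicate number. In each further list the same holds for the smallest block p between groups, the highest mean and the smallest p for number.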

Additional observations from a re-analysis of the deposited data

How the results depend on the processing

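No G2/M gene was called between groups under any alternative run. The number of all genes called was 0, and became 4 without a filter, 12 with the replicate block, 2 with the replicate block and GC and length correction, and 0 to 1 with 1 library left out. Leaving out both libraries of number 1, 2 or 3 in the replicate block, added after seeing the data, gave 14, 148 and 22. G2/M genes with groups apart were 0 of 54 in the main setting, against 3.34% of all genes tested. They numbered 2 with TMM factors, 1 with quantile scaling and 1 with the replicate block and correction. With 1 library left out they numbered 1 to 7, where 2 libraries stand against 3 and values lie apart more easily. The share of all genes is not given for these other settings, so no background stands beside their counts. Calls by replicate number ranged from 447 to 5848 genes, and from 2 to 23 of the 54, with 1 number left out. They fell to 0 genes, and to 0 of the 54, without a filter. That fit took in all 27328 rows, of which 4173 were 0 in every library. The cause of the fall was not tested. The median fold change of the 54 genes ranged from -0.07 to 0.01 with 1 library left out. Depth is unknown, so what it limits cannot be given.

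The sign of a fold change, none of which passed the test, turned for 38 of the 54 genes when 1 library was left out and for 7 in other settings, and 15 kept it throughout. With TMM factors the log2 fold change was -0.021 (BIRC5) and -0.0021 (CDC20). With quantile scaling the log2 fold change was -0.035 (BIRC5), -0.018 (CDC20) and -0.0055 (UBE2C). With the replicate block and correction the log2 fold change was -0.061 (BIRC5), -0.092 (CDC20), -0.043 (GTSE1), -0.018 (HMGB2), 0.010 (HMMR), 0.023 (LBR) and -0.028 (UBE2C). With 1 library left out it ran as follows for the 38 genes. It was -0.14 to 0.095 for ANLN, -0.21 to 0.021 for ANP32E, -0.064 to 0.31 for AURKB, -0.19 to 0.17 for BIRC5, -0.055 to 0.016 for BUB1, -0.48 to 0.11 for CBX5, -0.20 to 0.037 for CCNB1 and -0.13 to 0.051 for CCNB2. Next, it was -0.36 to 0.29 for CDC20, -0.25 to 0.020 for CDCA2, -0.10 to 0.34 for CDCA3, -0.040 to 0.18 for CDK1, -0.16 to 0.15 for CENPA, -0.38 to 0.061 for CENPF, -0.092 to 0.017 for CKAP2L and -0.20 to 0.10 for CKS2. Next, it was -0.095 to 0.14 for CTCF, -0.32 to 0.011 for DLGAP5, -0.21 to 0.030 for ECT2, -0.18 to 0.029 for G2E3, -0.13 to 0.17 for HMGB2, -0.084 to 0.029 for HMMR, -0.28 to 0.0013 for KIF20B and -0.13 to 0.045 for KIF23. Next, it was -0.096 to 0.019 for KIF2C, -0.092 to 0.077 for LBR, -0.074 to 0.12 for NDC80, -0.045 to 0.25 for NUSAP1, -0.20 to 0.12 for PLK1, -0.077 to 0.34 for RANGAP1, -0.14 to 0.032 for SMC4 and -0.11 to 0.034 for TACC3. Next, it was -0.13 to 0.014 for TMPO, -0.43 to 0.084 for TOP2A, -0.12 to 0.0062 for TPX2, -0.17 to 0.0095 for TTK, -0.18 to 0.50 for TUBB4B and -0.11 to 0.14 for UBE2C. Lower throughout were AURKA (-0.25 to -0.06), CDCA8 (-0.25 to -0.07), CENPE (-0.27 to -0.06), CKAP2 (-0.27 to -0.09) and CKAP5 (-0.22 to -0.01). So were GAS2L3 (-0.36 to -0.06), KIF11 (-0.16 to -0.02), MKI67 (-0.24 to -0.02), NCAPD2 (-0.15 to -0.02) and NEK2 (-0.20 to -0.01). PSRC1 was also lower (-0.41 to -0.12). CDC25C (0.05 to 0.29), CKS1B (0.01 to 0.28), HJURP (0.02 to 0.22) and NUF2 (0.03 to 0.10) were higher throughout.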
